A study of Homo sapiens with 24 samples.

Results

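BCL11A is a zinc finger repressor best known for silencing the fetal globin genes in adult red cell precursors. TR4, the product of NR2C2, is a nuclear receptor that binds direct repeats near the same genes with its partner TR2. Here 1000 stretches of chromatin were examined in which BCL11A was found and TR4 was not, and which lay at the ends of protein-coding genes. They were chosen from 79570 merged regions by presence or absence of peaks. Each had a peak in at least 2 of 3 libraries of every BCL11A-directed group, in 0 of 9 TR4-directed libraries and in 0 of 3 IgG libraries. Each lay no more than 1 kb from the start or end of a protein-coding gene record on chromosomes 1 to 22 or X (GRCh38). These values chose the regions and are given as a description, with no test. The regions are called BCL11A-only gene-end regions below.

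The study asked how TR4 binding compares with that of BCL11A in HUDEP-2, an immortalized human line of erythroid progenitors, by CUT&RUN. In CUT&RUN an antibody brings a nuclease to a chromatin protein, and the DNA fragments cut out around it are sequenced. All cells were grown alike with SCF, EPO, dexamethasone and doxycycline, with no further treatment. The clones differ in their edited alleles. Clone B carries BCL11A with 3HA+3MYC tags, clone T carries TR4 with C-terminal 3FLAG+3MYC tags, and clone TB carries both. Each is 1 clone, so clone and tag cannot be told apart.

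BCL11A-directed libraries were made with MYC and HA antibodies in clone B and HA in clone TB. TR4-directed libraries were made with MYC and TR4 antibodies in clone T and TR4 in clone TB. MYC in clone TB recovers both tagged proteins, and its 3 libraries are the only target libraries that the choice of regions did not use. There were 3 libraries in each of these 7 groups and 1 IgG library for each clone. The labels do not give separate cultures for replicates, so the spread between libraries may be technical. Transcripts were not measured, so the cells could not be checked against marker genes, and nothing below bears on expression.

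A gene's promoter lies around its start, where transcription factors and the basal machinery assemble. BCL11A is known to bind TGACCA, for example upstream of the fetal globin genes, and the zinc fingers of the GATA factors that drive red cell genes bind AGATAA. TR4 binds AGGTCA repeats, and NF-Y binds CCAAT, a motif of histone and many housekeeping promoters.

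The sequences below show promoter stretches under the strongest of these regions. For 314 regions the median BCL11A summit lay upstream of a gene start in a RefSeq promoter window (GRCh38.p14). Stretches of up to 40 bases on each side of the summit are given 5′ to 3′ along the gene, upstream of the start only. The first 6 have the highest mean fold rank among them. Capitals mark TGNCCA or its reverse complement TGGNCA, a looser form of TGACCA. PTPN18 encodes a tyrosine phosphatase, GP1BB a platelet glycoprotein subunit, DUSP1 a MAP kinase phosphatase and RNF146 a ubiquitin ligase. UGGT2 encodes a glycoprotein folding sensor.
PTPN18, chr2:130355886-130355966, plus strand: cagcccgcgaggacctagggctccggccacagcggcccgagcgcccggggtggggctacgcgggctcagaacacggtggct
GP1BB, chr22:19723401-19723481, plus strand: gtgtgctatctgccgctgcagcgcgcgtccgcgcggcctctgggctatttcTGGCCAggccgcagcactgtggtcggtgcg
DUSP1, chr5:172771361-172771441, minus strand: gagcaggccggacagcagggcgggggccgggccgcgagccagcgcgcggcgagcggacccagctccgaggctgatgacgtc
TOR4A, chr9:137277623-137277703, plus strand: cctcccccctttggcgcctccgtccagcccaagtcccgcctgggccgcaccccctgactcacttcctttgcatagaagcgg
RNF146, chr6:127266510-127266590, plus strand: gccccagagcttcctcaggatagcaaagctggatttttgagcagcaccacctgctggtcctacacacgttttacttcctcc
UGGT2, chr13:96053432-96053512, minus strand: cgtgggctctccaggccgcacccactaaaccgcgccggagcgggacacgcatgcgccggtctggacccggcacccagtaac
Only the GP1BB stretch of these 6 holds TGNCCA, and none holds TGACCA.

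An erythroid example is SPTB, the gene of β-spectrin in the red cell membrane skeleton, shown because its summit stretch holds the GATA motif. The stretch of RHAG, another red cell membrane gene, holds none and is not shown. How common the motif was under all such regions is given further below. Capitals mark AGATAA.
SPTB, chr14:64879932-64880012, minus strand: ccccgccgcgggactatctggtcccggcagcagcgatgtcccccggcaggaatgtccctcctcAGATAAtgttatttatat

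A further set lay at replication-dependent histone genes, which supply the core and linker histones of dividing cells. It is shown because these genes were the most heavily represented group in the sections below. Capitals mark CCAAT or its reverse complement ATTGG.
H3C14, chr1:149841268-149841348, minus strand: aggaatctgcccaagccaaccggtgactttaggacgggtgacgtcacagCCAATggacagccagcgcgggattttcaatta
H3C10, chr6:27809915-27809995, plus strand: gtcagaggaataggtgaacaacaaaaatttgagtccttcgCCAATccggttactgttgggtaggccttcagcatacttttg
H2AC17, chr6:27893202-27893282, minus strand: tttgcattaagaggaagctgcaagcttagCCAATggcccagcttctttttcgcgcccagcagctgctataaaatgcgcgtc
H2AC16, chr6:27865198-27865278, plus strand: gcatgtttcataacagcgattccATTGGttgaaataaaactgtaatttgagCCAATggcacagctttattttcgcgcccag
H3C3, chr6:26045254-26045334, plus strand: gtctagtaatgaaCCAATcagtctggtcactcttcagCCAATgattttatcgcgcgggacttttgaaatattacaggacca
H4C2, chr6:26027348-26027428, minus strand: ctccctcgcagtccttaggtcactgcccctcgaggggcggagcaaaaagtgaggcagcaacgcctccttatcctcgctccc
Of these 6, H4C2 has no CCAAT in the stretch, while H2AC16 and H3C3 hold 2 copies each.

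The lists differed in length, which bears on every count below. Target lists held 4621 to 31432 peaks and IgG lists 2036 to 4828. The 9 TR4-directed lists held 4621 to 14924 peaks and the 9 BCL11A-directed lists 12284 to 31432. The absence of a TR4-directed peak was thus read from lists that were shorter for the most part. With every list limited to its 4621 strongest peaks, the rule gave 293 regions. How far list length accounts for the absence of TR4 was not tested. Sequencing depth is unknown because the lists give no read counts. The regions had a peak in 992, 995 and 502 cases in the 3 MYC libraries of clone B, in replicate order. HA gave 982, 995 and 471 in clone B, then 961, 970 and 545 in clone TB. So the third replicate of each group, which also had the group's shortest list, held the fewest of these regions. Of the 1000 regions, 258 were in exactly 6 of 9 libraries, 285 in 7, 243 in 8 and 214 in all 9. Without replicate 1 or 2 of a BCL11A-directed group, both libraries left in that group had to hold the peak, and the number of regions fell. Without MYC replicate 1 or 2 of clone B it was 497 or 495. Without HA replicate 1 or 2 of clone B it was 465 or 453. With HA replicate 1 or 2 of clone TB left out it was 515 or 509.

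**Figure D1:**
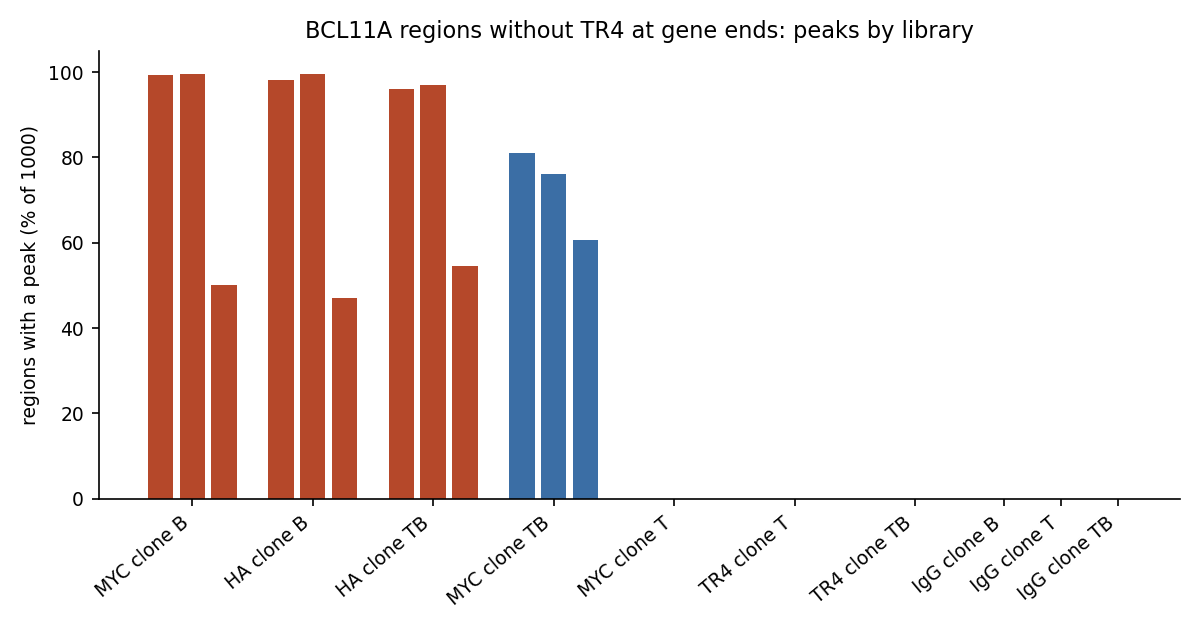
Share of the 1000 BCL11A-only gene-end regions with a peak in each of 24 libraries (vertical axis, percent), 1 bar per library in replicate order within a group. BCL11A-directed groups are red, MYC in clone TB is blue, and the TR4-directed and IgG groups are at 0 because the rule required it. The third replicate is the lowest bar in each of the 4 groups with bars.

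The edges of the rule cut through a continuum. Of 6903 gene-end regions found in every BCL11A-directed group, 1000 had no TR4-directed peak, 582 had 1 and 474 had 2. Just inside the distance limit were 34 regions at 901 to 1000 bases from the nearest gene end, and just outside were 38 at 1001 to 1100. A further 627 gene-end regions with no TR4-directed peak were 1 BCL11A-directed library short of the rule. Outside gene ends, 2611 BCL11A-only regions met the same presence rule, and these serve as the gene-distal counterpart below. A second comparison class is the 3203 gene-end regions found in at least 2 of 3 libraries of every BCL11A-directed and every TR4-directed group, called the core regions of both proteins.

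Most of the regions were found again in the libraries that the rule did not use. In the MYC libraries of clone TB, 785 of the 1000 regions (78.5%, 95% Wilson interval 75.8 to 80.9, counting error only) had a peak in at least 2 of 3. Over all 70402 regions without an IgG peak the share was 28.1%, and over the 17939 at gene ends it was 51.1%. Neither of these 2 classes had to meet the support rule, and 8.56% and 18.5% of them were in all 9 BCL11A-directed libraries. Part of their gap to the chosen regions is thus built in, since the rule asked for BCL11A peaks, including MYC libraries and clone TB. The share was 79.2% for the gene-distal counterpart and 100.0% for the core regions of both proteins. Of the 1000 regions, 467 had a peak in all 3 libraries, 318 in 2, 142 in 1 and 73 in none. The share followed the support from BCL11A: 63.6% with 6 BCL11A-directed libraries, 73.3% with 7, 85.2% with 8 and 95.8% with 9. For the gene-distal counterpart it was 57.3%, 75.8%, 81.9% and 95.1%. At equal support the gene-end share was thus the higher with 6, 8 and 9 libraries and the lower with 7, while 21.4% of gene-end against 29.5% of gene-distal regions had all 9. For gene-end regions it was also higher just outside the rule, at 88.3% for regions with 1 TR4-directed peak and 95.1% for those with 2.

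Over all levels of support, and library by library, slightly fewer gene-end than gene-distal BCL11A-only regions were found with MYC in clone TB. Peaks were present at 81.1%, 76.1% and 60.7% of the gene-end regions in MYC replicates 1, 2 and 3 of clone TB, and at 81.5%, 79.2% and 65.8% of the gene-distal ones. The means were 72.6% ± 10.6 and 75.5% ± 8.47 (SD, n = 3). The gene-end share was the lower in 3 of 3 libraries, by a mean of 2.89 percentage points ± 2.38 (SD). The exact sign-flip permutation test over libraries, two-sided, gave p = 0.25, the smallest that 3 libraries allow, so this design cannot call the difference. It was 1 of 2 such tests, and the p adjusted over both by Benjamini-Hochberg was also 0.25.

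**Figure D2:**
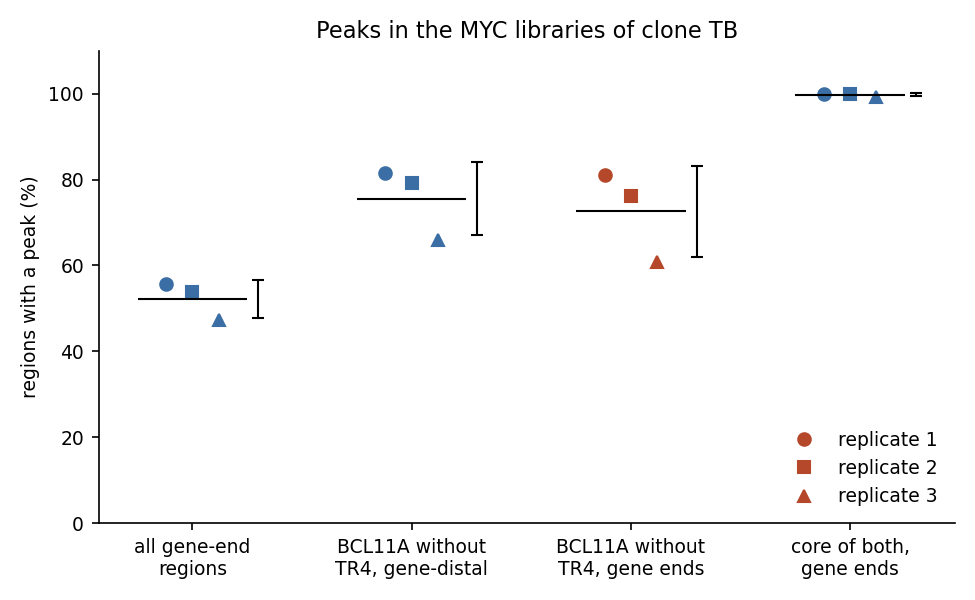
Share of regions with a peak (vertical axis, percent) in MYC replicates 1 to 3 of clone TB for 4 classes of regions. Symbols are libraries, the horizontal line is their mean and the bar beside it is ± 1 SD (n = 3). The BCL11A-only gene-end regions (red, 60.7% to 81.1%) overlap the gene-distal ones (65.8% to 81.5%). They lie above all gene-end regions in each library, a class that was not chosen for BCL11A support.

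The peaks themselves were of middling strength. Strength was read as the percentile of a peak's fold enrichment within its own list, because folds of different lists are not on 1 scale. Folds of several libraries are printed below side by side, as the authors deposited them, and no direction is read from them. In the MYC libraries of clone TB the median region stood at percentile 42.1, 44.5 and 44.2, the gene-distal counterpart at 48.1, 45.5 and 45.0, and the core regions of both proteins at 84.1 to 87.6. The gene-end minus gene-distal difference was -2.60 percentile points ± 2.95 (SD, n = 3, below 0 in 3 of 3 libraries; exact sign-flip permutation test, two-sided, p = 0.25, the smallest possible). With every list limited to its 4621 strongest peaks it changed sign, to 0.20 points. In the libraries that chose the regions, and so as a description only, the same difference was +2.03 points ± 1.69 with MYC in clone B, +1.68 ± 2.43 with HA in clone B and -2.86 ± 0.961 with HA in clone TB (SD, n = 3 each). It was thus above 0 in 3 of 3 MYC and 2 of 3 HA libraries of clone B, and below 0 in 3 of 3 HA libraries of clone TB. The median fold over the regions was 7.35 to 11.8 by BCL11A-directed or clone TB MYC library. Region width had a median of 262 bases (99 to 1311).

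The strongest region lay at CYB561, which encodes a transmembrane electron carrier (chr17:63431731-63432406). Its folds were 101.1, 74.5 and 40.7 with MYC in clone B and 66.8, 61.4 and 28.2 with HA in clone B. They were 46.9, 62.3 and 24.8 with HA in clone TB and 59.7, 40.4 and 32.9 with MYC in clone TB. All 12 libraries thus held a peak there. The region covered the 3′ end of the gene record, and its summit differed between the 9 BCL11A-directed libraries by an SD of 5.33 bases. PTPN18 (chr2:130355684-130356281) was also in all 12. It had folds of 52.4, 36.3 and 51.2 with MYC and 42.5, 33.2 and 40.6 with HA in clone B. With HA in clone TB it had 43.9, 55.5 and 48.3, and with MYC in clone TB 17.8, 32.8 and 45.8.

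GP1BB, a subunit of the platelet receptor for von Willebrand factor, shared its region with SEPTIN5, a cytoskeletal GTPase gene whose end lies within 1 kb (chr22:19723305-19723948). Its folds were 55.8, 59.4 and 28.2 with MYC and 42.6, 34.0 and 31.8 with HA in clone B. They were 27.3, 25.4 and 21.7 with HA and 22.6, 21.4 and 21.5 with MYC in clone TB. A second region of the same genes, at chr22:19724114-19724346, was in all 12 libraries with folds of 8.41 to 25.5. The region between C11orf21 and TSPAN32, a tetraspanin gene of blood cells, is the widest (chr11:2302767-2304077). It had folds of 57.9, 26.1 and 47.9 with MYC and 49.0, 22.6 and 43.6 with HA in clone B, and 58.4, 88.8 and 89.7 with HA and 56.4, 61.4 and 92.6 with MYC in clone TB. FGD2, an exchange factor for the GTPase CDC42, had folds of 15.2 to 57.2 in its 12 libraries (chr6:37029385-37029801).

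Further named regions of this kind were at signalling genes. DUSP1 (chr5:172771016-172771549) had folds of 47.8, 37.4 and 26.3 with MYC and 43.1, 29.3 and 16.7 with HA in clone B, and 24.6, 30.7 and 21.2 with HA and 25.3, 23.7 and 16.6 with MYC in clone TB. LYN, a SRC-family kinase of the erythropoietin receptor pathway, had 47.0, 49.3 and 20.6 with MYC and 53.2, 42.6 and 19.2 with HA in clone B. In clone TB it had 27.8, 33.8 and 11 with HA and 20.6, 16.7 and 16.4 with MYC. None of the 12 libraries lacked a peak at either gene.

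**Figure D3:**
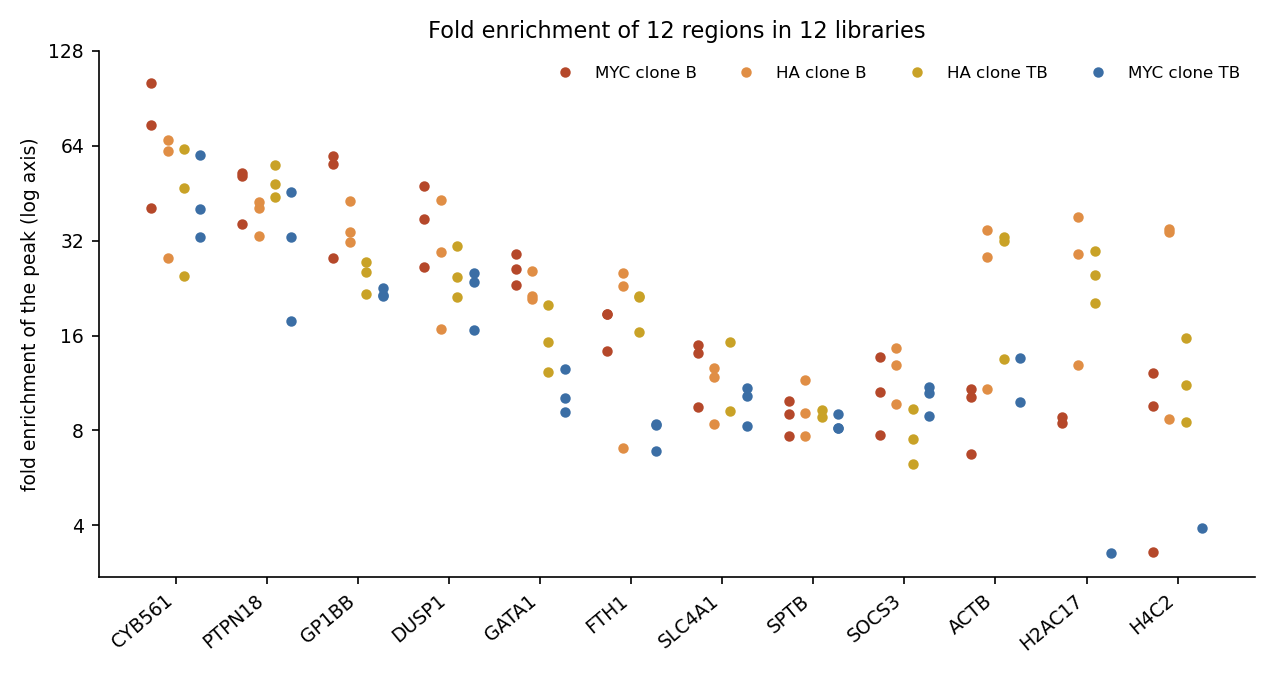
Fold enrichment as deposited (vertical axis, log scale) of 12 named regions in 12 libraries, with 1 point per library that had a peak and 1 colour per group. CYB561 reaches 101.1, SLC4A1 and SPTB lie between 7.68 and 15.2, and the points of H2AC17 span 3.27 to 37.9. Points of different libraries come from different lists and were not compared.

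Within the gene-end window, the regions lay mostly at gene starts, which the rule did not ask for. Strand was known for 800 regions. Of these, 706 (88.2%, 95% Wilson interval 85.8 to 90.3, counting error only) were nearer a start than an end. This is about the share of all gene-end regions without an IgG peak (89.0%) and below that of the core regions of both proteins (96.2%). For 724 regions the summit could be placed against the start. Its median lay 38 bases upstream (quartiles -105.5 to 291), 59.5% were upstream, 43.4% within 100 bases and 25.3% beyond 500. In the core regions of both proteins the median was 96 bases upstream, with 81.4% upstream and 10.6% beyond 500. The most crowded stretch of 100 bases was the one just upstream of the start in both classes, with 33.0% and 33.4% of summits. The next 100 bases upstream held 10.9% against 30.6%, and the first 100 bases inside the gene 10.4% against 4.93%. No test was made, since regions are not replicates.

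**Figure D4:**
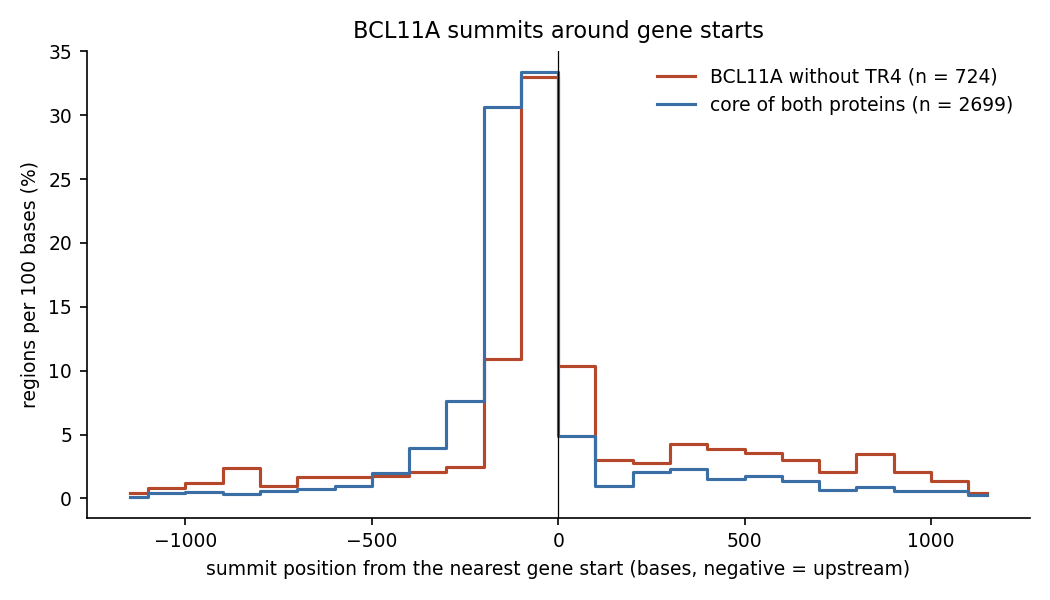
Position of the median BCL11A summit from the nearest gene start (horizontal axis, bases, negative upstream) as percent of regions per 100 bases (vertical axis), for 724 BCL11A-only regions and 2699 core regions of both proteins. Both peak in the 100 bases upstream of the start (33.0% and 33.4%), and the core regions hold more in the 100 bases before that (30.6% against 10.9%).

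The summit differed little between the BCL11A-directed libraries, which is partly built in, since peaks were merged where they overlapped. Its SD over the BCL11A-directed libraries with a peak had a median of 31.1 bases. It was at most 20 bases in 256 regions and above 100 bases in 64. Most regions belonged to 1 gene (838), 157 lay at the ends of 2 genes and 5 at 3 or more, and 83 lay within 1 kb of the starts of at least 2 genes. In all, 1067 of 19974 protein-coding genes (5.34%) had such a region, which is the background for every gene group below. For comparison, 35.0% of genes had a region found in every BCL11A-directed group, 32.9% a TR4 region (a peak in at least 2 of 3 libraries of any TR4-directed group) and 18.4% a core region of both proteins.

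Genes with a BCL11A-only region were not all free of TR4. A TR4 region lay within 1 kb of 191 regions (19.1%) and within 5 kb of 28.3%, while 37.9% had none within 50 kb, and the median distance was 26250 bases. Over all gene-end regions with no IgG or TR4-directed peak, 29.4% had a TR4 region within 1 kb, and for the gene-distal BCL11A-only regions 6.55%. By gene, 287 of the 1067 (26.9%) had a TR4 region elsewhere at an end, against 32.9% of all protein-coding genes. Among the 5931 genes that had a BCL11A region of every group but no BCL11A-only one, 86.7% had a TR4 region. Part of that gap is built in, since a BCL11A region that is not BCL11A-only has by definition a TR4-directed peak.

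Several groups of erythroid genes stood above the background, not all of them under every setting. Skeleton, erythroid factor, signalling and blood group genes also had a BCL11A region of every group, with or without TR4, more often than all genes. Of 21 genes of the red cell membrane skeleton, 7 (33.3%) had a BCL11A-only region, against 5.34% of all genes. ACTB, ADD1, SLC4A1, SPTB, GYPC and RHAG were among them. Of the 21, 11 had a BCL11A region of every group (52.4%, against 35.0% of all genes). A core region of both proteins lay at 1 of them (4.76%, against 18.4%) and a TR4 region at 6 (28.6%, against 32.9%). In a list this short these last counts give no direction. Genes of this list were chosen with earlier results of these data known. The count rests on the first 2 replicates of the HA libraries in clone TB: without either one, 19% of the list had such a region, against 2.89% and 2.87% of all genes. With every list limited to its 4621 strongest peaks, 0 of the genes had one, against 1.69% of all genes.

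SLC4A1, the band 3 anion exchanger of the red cell membrane, had folds of 14.1, 14.9 and 9.50 with MYC and 11.8, 12.7 and 8.40 with HA in clone B (chr17:44268069-44268460). In clone TB it had 9.23 and 15.2 in HA replicates 1 and 2, no peak in the third, and 8.25, 10.9 and 10.3 with MYC. SPTB, whose promoter stretch with AGATAA is given above, had folds within a narrow range of 7.68 to 11.6 in 11 libraries and no peak in HA replicate 3 of clone TB. RHAG, the Rh-associated glycoprotein, was weaker and patchier, with folds of 4.02 to 10.3 in 9 of 12 libraries. ADD1, an adducin that caps actin filaments, had folds of 8.77 to 21.5 in all 12. Over the 9 BCL11A-directed lists the mean fold percentile of these 7 genes' regions ran from 43.7 (RHAG) to 79.9 (ACTB), below that of the strongest regions above.

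Erythroid transcription factors gave 6 of 24 genes (25.0%): GATA1, LYL1, E2F2, MAFG, LMO2 and KLF1. GATA1, the master regulator of red cell genes, was among the 6 genes with the most such regions, with 3. The region at its start (chrX:48785852-48786644) had a peak in all 12 libraries. Its folds were 29.1, 26.1 and 23.1 with MYC and 20.9, 25.6 and 21.3 with HA in clone B, and 15.3, 20.0 and 12.3 with HA and 12.5, 10.1 and 9.14 with MYC in clone TB. The other 2 lay at the 3′ end, at chrX:48794327-48794704 and chrX:48794991-48795204, in 6 and 7 of 9 BCL11A-directed libraries and with folds no higher than 16.6.

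LYL1, a basic helix-loop-helix factor, shared a strong region with NFIX, a nuclear factor I gene linked to fetal globin silencing (chr19:13097927-13098849). This region covered the 3′ end of the NFIX record. Its folds were 7.30 to 44.5 in all 12 libraries. A second shared region, at chr19:13099469-13099699, had peaks in 7 BCL11A-directed libraries and was absent from the MYC lists of clone TB. KLF1, which activates adult β-globin, had a region 433 bases from its 3′ end (chr19:12883796-12883989). It had folds of 4.41 to 13.8 in 8 of 9 BCL11A-directed libraries and no peak in the MYC libraries of clone TB. E2F2, a cell cycle factor of erythroblasts, had folds of 9.49 to 28.6 in 10 of 12 libraries. Of the 24 factors, 18 had a BCL11A region of every group and 12 a TR4 region. The 6 genes with a BCL11A-only region therefore included 3 that also carried TR4 elsewhere at their ends. Of the 10 regions of these 6 genes, 6 were nearest a 3′ end and 2 a gene start, with strand unknown for the rest. Over all 1000 regions the counts were 94 and 706.

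Among 10 globin genes, HBB and HBZ had BCL11A-only regions. HBB, the adult β-globin gene, had 2. The first (chr11:5226533-5227262) covered one annotated end and had folds of 10.4, 13.1 and 6.30 with MYC and 14.8, 24.9 and 10.5 with HA in clone B. In clone TB it had 11.1, 4.46 and 8.00 with HA and 6.92, 7.73 and 8.55 with MYC. The second lay 108 bases from the opposite end (chr11:5225572-5225851), with folds of 4.6 to 20.3 in 11 libraries and no peak in HA replicate 3 of clone B. HBZ, the embryonic ζ-globin gene, had folds of 11.9 to 21.6 in 11 libraries (chr16:152323-152742), again with none in HA replicate 3 of clone B. None of the 10 genes had a core region of both proteins, against 18.4% of all genes.

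Genes of erythropoietin and KIT signalling gave 7 of 26 (26.9%): LYN, SOCS3, SOCS1, GAB2, DUSP6, PIM1 and PTPN6. Several are brakes on the pathway: SOCS1 and SOCS3 inhibit JAK signalling, DUSP6 removes phosphate from ERK, and PTPN6 is the phosphatase SHP-1. SOCS3 had folds of 6.27 to 14.6 in all 12 libraries (chr17:78360842-78361023) and SOCS1 of 5.58 to 20.0 in all 12 (chr16:11255707-11256359). PIM1, a kinase gene induced by STAT5, had a peak in 6 of 9 BCL11A-directed and 3 of 3 MYC libraries of clone TB. In this list 22 of 26 genes had a BCL11A region of every group (84.6%, against 35.0% of all genes). A TR4 region lay at 17 of them (65.4% of the list, against 32.9% of all genes), and 3 of the 7 had one. Without MYC replicate 1 or 2 or HA replicate 1 or 2 of clone B, 15.4% of the list had a BCL11A-only region. In those same settings 2.45% to 2.69% of all genes had one.

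Blood group antigen genes gave 6 of 25 (24%): ABCB6, AQP3, XK, CD59, ACKR1 and FUT1. ABCB6, a porphyrin transporter that carries the Langereis antigen, had folds of 5.25 to 24 in all 12 libraries (chr2:219217873-219218080). ACKR1, the Duffy antigen receptor, had folds of 4.59 to 13.2 in 11 libraries. Of the 25, 14 had a BCL11A region of every group (56.0%, against 35.0% of all genes). The share with a BCL11A-only region was 8.00% without HA replicate 1 or 2 of clone TB, against 2.89% and 2.87% of all genes. It was 16% without HA or MYC replicate 1 or 2 of clone B, against 2.45% to 2.69%. With equal lists it was 0, against 1.69%, and a list this short cannot tell 0 from that share. Of 20 iron genes, 2 had a region, FTH1 among them, and of 18 heme genes HMOX1 and UROD did. FTH1, the ferritin heavy chain gene, had folds of 18.7, 18.7 and 14.3 with MYC and 23, 25.2 and 7.04 with HA in clone B (chr11:61967437-61967859). It had 21.4, 21.1 and 16.4 with HA and 6.90, 8.41 and 8.31 with MYC in clone TB.

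Marker lists of other lineages were counted in the same way, beside the 5.34% of all genes. None of 26 B and T lymphoid, 24 myeloid and 20 testis genes had one, and 1 of 20 neuronal genes did (5%), TUBB3, which shares its region with MC1R. Of 26 megakaryocyte and platelet genes, GP1BB, GP9 and ZYX had one (11.5%). GP9, another subunit of the GP1BB receptor complex, had 2 regions with folds of 4.28 to 20.9. The neuronal share is near that of all genes and the platelet share, from 3 genes, above it. Lists this short cannot tell such small counts, 0 included, from the share of all genes. Of the lymphoid and myeloid lists, 0 and 3 genes had any BCL11A region of every group, against 35.0% of all genes. Of the platelet list 5 of 26 (19.2%) had one.

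In 3 lists of housekeeping machinery TR4 regions were frequent and BCL11A-only regions were not above the background. Of 74 respiratory complex subunit genes 1 (1.35%), ATP5F1D, had a BCL11A-only region, while 57 (77.0%) had a TR4 region and 34 a core region of both proteins. Of 78 cytosolic ribosomal protein genes 3 (3.85%) had one, RPL7, RPL38 and RPL37A, and 54 (69.2%) had a TR4 region. Of 32 proteasome genes 1 (3.12%) had one, PSMD12. The ribosomal and proteasome shares are near the 5.34% of all genes. The respiratory share is below it, but not under every setting. It was 2.70% against 1.69% of all genes with equal lists, 1.35% against 1.18% with 3 of 3 libraries per group, and 2.70% against 2.69% without MYC replicate 1 of clone B. Without TR4 replicate 1 of clone TB or MYC replicate 1 of clone T it was 2.70%, against 5.83% and 5.70%. In a list of 74 genes 1 gene makes 1.35%, so the settings with near-equal shares give no direction. ATP5F1D, the δ subunit of the mitochondrial ATP synthase, had 2 regions, the stronger with folds of 9.80 to 23 in all 12 libraries (chr19:1244448-1244732).

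Fetal globin regulators gave 4 of 22 genes (18.2%): NFIX, IGF2BP1, NFYA and KLF1. Of their 7 regions, 4 were nearest a 3′ end and 1 a gene start. KLF1 and the regions that NFIX shares with LYL1 also count among the erythroid factors above. IGF2BP1, a fetal RNA-binding protein gene, had 2 neighbouring regions, each with peaks in 7 BCL11A-directed and all 3 MYC libraries of clone TB. NFYA, a subunit of the CCAAT-binding factor NF-Y, had folds of 6.56 to 11.4 in 10 libraries. The corepressor list gave 1 of 26 genes (3.85%), RCOR3, with peaks in 6 of 9 BCL11A-directed libraries and none of the MYC libraries of clone TB. Cell cycle genes gave 4 of 27 (14.8%), E2F2, CCND2, CDKN2A and CCND1. Regulators of small GTPases gave 4 of 28 (14.3%), integrins and their adaptors 3 of 26 (11.5%) and hypoxia genes 2 of 24 (8.33%). ITGA4, the α4 integrin by which erythroblasts hold to macrophages, had folds of 4.77 to 39.0 in 11 libraries, with 22.2, 29.0 and 14.4 with MYC in clone B and 7.27, none and 5.75 with MYC in clone TB.

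**Figure D5:**
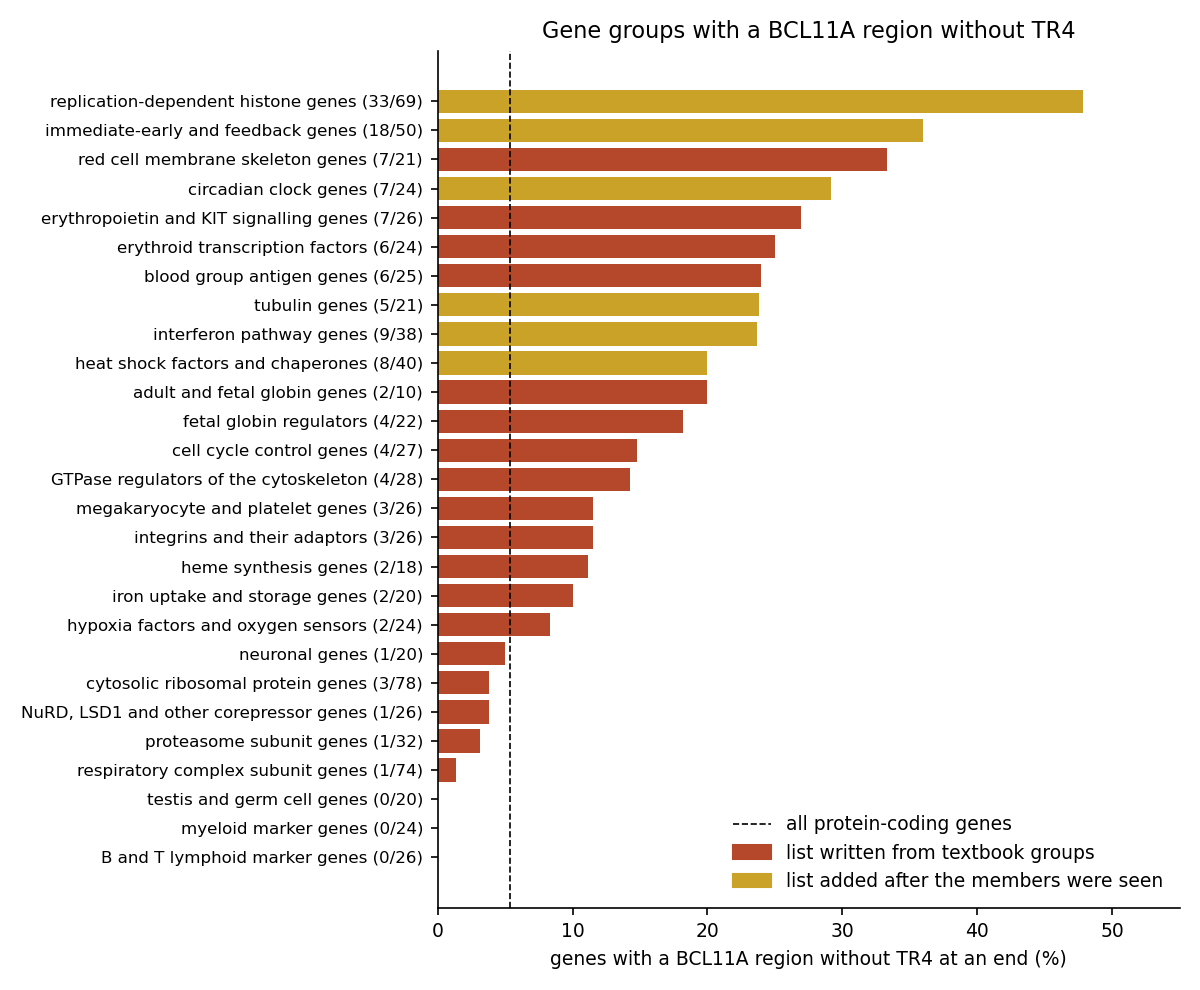
Share of genes of 27 lists with a BCL11A-only gene-end region (horizontal axis, percent; counts in brackets), with a dashed line at the 5.34% of all protein-coding genes. Red lists were written from textbook groups with earlier results of these data known, and yellow lists were added after the regions had been seen. Histone genes reach 47.8%, and 3 red lists stand at 0.

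A group that stood out when the regions were read through was the replication-dependent histone genes, and the list was made after that. Of 69 such genes, 33 (47.8%) had a BCL11A-only region, against 5.34% of all genes. They lay in 32 regions, 20 on chromosome 6, 10 on chromosome 1 and 2 on chromosome 12. Only 5 of the 69 genes (7.25%) had a core region of both proteins, 20 (29.0%) had a TR4 region and 56 (81.2%) a BCL11A region of every group. Histone genes are near-identical copies, so reads may be assigned between them with error, and no source used here says how multiple alignments were handled. The genes also lie in clusters, so the 32 regions are not independent: the windows 26 to 27 Mb and 27 to 28 Mb of chromosome 6 and 149 to 150 Mb of chromosome 1 held 14, 9 and 11 of the 1000 regions.

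Most histone regions had a higher percentile in the HA than in the MYC lists of clone B. At H2AC17 and H2BC17, a divergent pair (chr6:27892995-27893630), the HA libraries of clone B gave folds of 37.9, 29.0 and 12.9, and those of clone TB 29.6, 24.9 and 20.4. MYC folds were 8.86 and 8.46 with no peak in replicate 3 of clone B, and in clone TB only replicate 2 had a peak, of 3.27. H4C2 (chr6:26026720-26027553) had 34.8, 34.1 and 8.73 with HA and 12.1, 9.56 and 3.29 with MYC in clone B. H3C10 (chr6:27809800-27810330) had 40.6, 26.8 and 10.8 with HA, and 15.8 and 12.9 with MYC, where replicate 3 had no peak, in the same clone. H3C14, which has 3 such regions, reached 58.9 and 44.4 in HA replicates 1 and 2 of clone B at its start, where MYC gave 11.2 and 12.8 (chr1:149840991-149842082).

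As a description over the list, the mean HA percentile minus the mean MYC percentile in clone B had a median of 18.5 over the 32 histone regions and was above 0 in 25 of them. It exceeded 20 points in 15 (46.9%). Over all 1000 regions the median was -2.17 and 75 (7.50%) exceeded 20 points. The lists differ in length, so a difference in percentile between them is read only beside that of all 1000 regions. The MYC libraries of clone TB had a peak in at least 2 of 3 at 19 histone regions (59.4%), against 79.1% of the other 968. The histone count also turned on MYC replicates 1 and 2 of clone B: without either, 13% of the genes had a region, against 2.69% and 2.68% of all genes. With equal lists 2.90% had one, against 1.69% of all genes.

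Some other genes leaned the same way. The highest HA-minus-MYC difference was at H1-2, a linker histone gene (50.0 points), and DUSP6 followed the histone pair H2AC4 and H3C2 (45.0 against 45.7). At ACTB, the gene of β-actin (chr7:5530491-5530886), folds were 28.4, 34.5 and 10.8 with HA in clone B and 32, 33.0 and 13.5 with HA in clone TB. MYC gave 10.8, 6.74 and 10.2 in clone B, and 9.83, 13.5 and no peak in replicate 3 of clone TB. The lowest difference was at RNF215 (-54.5 points), with MYC folds of 13.1 and 14 and HA folds of 6.94 and 4.28 in clone B. FZD1, a WNT receptor gene, was low as well (-46.1 points).

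Other groups were also listed after the regions had been seen, so that their counts are descriptions. Immediate-early and feedback genes, which respond within minutes to growth signals, gave 18 of 50 (36.0%), among them DUSP1, ZFP36L2, IER2, CSRNP1 and FOSB. Of the 50, 38 (76.0%) had a BCL11A region of every group, against 35.0% of all genes. IER2 had folds of 8.56 to 25.4 in all 12 libraries (chr19:13154280-13154708). ZFP36L2, an RNA-binding protein that acts on AU-rich messages, had 3 regions, all in 12 of 12 libraries, with 9.42 to 43.2 at the strongest (chr2:43226023-43226893). EGR2, a zinc finger factor, also had 3, of which one had no peak in the MYC libraries of clone TB and another had 1. The share in this list was 24% without HA replicate 1 of clone TB or HA replicate 1 or 2 of clone B, and 22% without HA replicate 2 of clone TB. In those settings 2.45% to 2.89% of all genes had a BCL11A-only region.

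Circadian clock genes gave 7 of 24 (29.2%), including CRY1, DBP, CLOCK and BMAL1. CRY1, a repressor of CLOCK and BMAL1, had folds of 7.24 to 28.8 in 11 libraries (chr12:107093122-107093655). CLOCK and BMAL1 were weaker, with folds of 5.36 to 10.6 in 8 libraries and 3.45 to 16.3 in 10. Interferon pathway genes gave 9 of 38 (23.7%), with JAK1, IRF7 and B2M among them. Tubulin genes gave 5 of 21 (23.8%) and heat shock genes 8 of 40 (20.0%). Of the heat shock genes, 16 of 40 had a core region of both proteins, against 18.4% of all genes. The 1 Mb window with the most regions was 144 to 145 Mb of chromosome 8, near the end of its long arm, with 16 regions at 18 of 46 genes, among them DGAT1 and HSF1.

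The 73 regions with no peak in the MYC libraries of clone TB included strong ones. STXBP3, a vesicle fusion gene, had a peak in all 9 BCL11A-directed libraries with folds of 8.02 to 21 (chr1:108747354-108747529). At PPIA, the cyclophilin A gene, a region with folds of up to 34.1 had no peak in the MYC libraries of clone TB (chr7:44797440-44797764). Its neighbour at chr7:44796931-44797192 had one in all 3, of 9.37, 8.35 and 9.17. BCL6, a repressor gene of the B cell lineage, had folds of 9.35 to 15.7 in exactly 6 libraries, replicates 1 and 2 of each BCL11A-directed group. CCND2, the cyclin D2 gene, had peaks in 7 BCL11A-directed libraries.

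Promoter windows of 300 bases (250 upstream and 50 downstream of the start) were searched on both strands for 9 short motifs. Of the regions, 443 overlapped such a window, in 471 windows, and 15812 windows of protein-coding genes were searched in all. The shares below are descriptions, and a match is not a binding site. TGACCA stood in 6.79% of the 471 windows, 8.74% of the 2642 under core regions of both proteins and 9.30% of all windows. TGNCCA, which includes TGACCA, stood in 38.9%, 37.2% and 40.3%. AGATAA stood in 5.73%, 3.10% and 7.55%. Neither the BCL11A motif nor the GATA motif was thus more frequent under BCL11A-only regions than over all promoters.

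The next 4 motifs were each in a smaller share of windows under BCL11A-only than under core regions. AGGTCA, the half-site of TR4, stood in 7.22% of windows under BCL11A-only regions, 11.8% under core regions of both proteins and 11.7% of all. CCAAT stood in 31.4%, 50.9% and 36.3%, but with equal lists it stood in 40.3% of windows under BCL11A-only regions, above the share of all. CCGGAA, a core of ETS factor sites, stood in 24.2%, 39.2% and 22.8%, and GGGCGG, the GC box of SP factors, in 70.9%, 81.1% and 58.5%. CACGTG, the E-box of MYC, was at 10.4%, 11% and 8.87%. The direct repeat of AGGTCA with 1 base between (DR1) was found in 0 of the 471 windows, 2 of the 2642 and 3 of all. Windows under BCL11A-only regions had a median GC content of 67.3%, against 65.7% and 62.7%, and 89.2% had a CpG observed-to-expected ratio of at least 0.6, against 95.6% and 65.8%.

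Centred on the summit, TGACCA and AGATAA were near the share of all windows, and AGGTCA was below it. In stretches of 101 bases, TGACCA was in 16 of 321 BCL11A-only summits (4.98%) and in 4.13% of 1792 core summits. All windows held it in 3.60% at bases 126 to 226. In the same order, AGGTCA was in 1.25% (4 stretches), 4.41% and 4.25%, and CCAAT in 24.9%, 36.6% and 22.3%. AGATAA was in 2.80% (9 stretches), 0.670% and 2.30%. The median GC content of the stretches was 71.3%, 66.3% and 64.4%, and the motif shares were not adjusted for it. The histone promoters shown above belong to a class where CCAAT is common in any case. It stood in 54 of 64 histone windows, in 17 of the 22 overlapped by a BCL11A-only region and in 37 of the 42 that were not.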

How the data were processed

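CUT&RUN peak lists of 24 libraries were used. The submitters' processing notes name GRCh38 and MACS2 2.1.4 beside SAMtools, Picard, Bowtie2 and Trimmomatic, without their roles. Lists were deposited by library, so peaks were called per library. The authors deposited for every peak its fold enrichment, which is a linear ratio, its −log10 q-value and the offset of its summit. Folds are the authors' values. They were ranked within a list, and folds of different lists are printed side by side without comparison.

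Peaks of all libraries sharing at least 1 base were merged. Regions holding an IgG peak were dropped, and regions were classed by presence in at least 2 of 3 libraries. Where a library had several peaks in a region, the strongest was used. Gene ends came from a RefSeq gene table and strand from RefSeq promoter windows (both GRCh38.p14), with strand for 15812 genes. Exons and introns were not analysed here. A region carries the symbol of every protein-coding gene with an end within 1 kb.

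The regions and 21 gene lists were chosen with earlier results of these data known, and 6 lists were added after the regions had been seen. Symbols that matched no gene record were left out of a list's total. Named genes were drawn from the 12 regions in all 12 libraries with the highest mean fold percentile, up to 4 per list (all globins), the 6 genes with the most regions, the 8 strongest in a promoter window (not chromosome 8) and the ends of printed ranges, and not all of them are printed. Other genes were named after their values were seen, and some genes that the lists count are not reported here by name. Tests were exact two-sided sign-flip permutations over 3 libraries. The classing step was tested on simulated lists. Alternatives were the peak threshold, list length, merging, window, number of libraries and each library left out. Analyses used Python 3.11.15, pandas 2.3.3, numpy 2.4.6 and scipy 1.17.1.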

Additional observations from a re-analysis of the deposited data

How the results depend on the processing

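The number of BCL11A-only gene-end regions was 293 with every list limited to its 4621 strongest peaks, 214 with 3 of 3 libraries required and 1582 with up to 1 TR4-directed library allowed. It was 453 to 1180 over the 21 settings that left out 1 target library. In the 5 other settings it stayed within 1.5 times the reported number. The share found with MYC in clone TB was 53.2% with equal lists, 95.8% with 3 of 3 libraries per group, 82.1% with up to 1 TR4-directed library and 46.7% with 3 of 3 MYC libraries required, and 52.3% to 88.0% with 1 library left out. The mean gene-end minus gene-distal difference in that share stayed below 0 in all 8 settings (-4.66 to -0.60 points) and with each library left out (-4.06 to -1.64). The exact sign-flip test gave p = 0.5 with −log10 q of at least 5, a window of 500 bases or up to 1 TR4-directed library. With equal lists p was higher. In those settings, and with some libraries left out, not every library lay below 0. The mean difference in fold percentile reversed to 0.20 points with equal lists (exact sign-flip test, p = 0.5). It was below 0 in the other 8 settings and with each library left out (-4.58 to -0.85). By that test p was also 0.5 with 3 of 3 libraries per group, a window of 2 kb or gaps of up to 100 bases merged. There too, not every library lay below 0. The share nearer a start was 92.8% with equal lists, 90.6% with a window of 500 bases, 85.2% with 2 kb and 86.9% to 88.8% with 1 library left out. The share of genes with a TR4 region elsewhere was 23.6% with −log10 q of at least 5, 11.3% with equal lists, 30.9% with summits extended by 50 bases, 18.1% and 36.0% with windows of 500 bases and 2 kb, 40.02% with a TR4 peak in any 1 library, and 22.9% to 27.2% with 1 library left out.

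Of the 27 gene lists, 7 were rerun under the same settings, chosen after the data had been seen. With equal lists the histone genes fell to 2.90% and the red cell membrane skeleton and blood group genes to 0. The erythroid factors fell to 8.33% and the immediate-early genes to 20.0%, and the share of all genes to 1.69%. The skeleton and blood group lists are too short to tell 0 from that share. With 3 of 3 libraries per group the same lists, in that order, stood at 13%, 14.3%, 4.00%, 12.5% and 16%, against 1.18% of all genes. Respiratory genes stood at 2.70% and 1.35% in these 2 settings. In this list 1 of 74 genes makes 1.35%, so these shares are near those of all genes and give no direction. CCAAT stood in 35.8% of windows with −log10 q of at least 5 and 40.3% with equal lists, the latter above the 36.3% of all promoters. The cause of these shifts was not tested. No paired analysis was possible because no groups of libraries were tested against each other, which leaves replicate numbers nothing to pair. The 2 tests themselves take the difference between both classes of regions within each library. List length stands in for depth, which is unknown.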
